A study of Homo sapiens with 6 samples.

Results

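The genes described here encode proteins of the extracellular matrix: fibulins, fibrillins, fibronectin and a collagen. They were taken by symbol, under a rule chosen with earlier results of these data known. Every probe set named by the platform annotation as a collagen chain, a laminin chain, an integrin subunit, a fibulin, a fibrillin or fibronectin was taken, antisense genes were left out, and the brightest probe set, by its mean over the arrays, stood for its gene. The rule found 9 of the 14812 genes tested, each with 1 probe set: *FBLN1*, *FBLN2*, *FBLN5*, *FBLN7*, *FBN1*, *FBN2*, *FBN3*, *FN1* and *COL26A1*. The set therefore held 1 collagen, 0 laminins and 0 integrins, and is called the matrix genes below. Other collagens, laminins and integrins were not analysed here.

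UMSCC1 is an established line of human oral squamous cell carcinoma. UM-Cis was derived from it by selection in cisplatin that was raised in steps from 1 to 5 μg/mL. Both lines were grown in the same serum-containing medium, without cisplatin before RNA was taken, and each was measured on 3 arrays, of which 1 carries no number in its label and the others are numbered 1 and 2. UM-Cis is a single derived line, and no source says that the arrays of a line came from separate cultures, so p-values here reflect array-to-array spread alone, which may be technical.

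Fibrillins polymerise into microfibrils, thin filaments on which elastin is laid down and which hold latent growth factors of the TGF-β family. Fibulins are secreted glycoproteins that sit in elastic fibres and basement membranes and bind fibronectin, laminins and proteoglycans. Fibronectin is an adhesive glycoprotein that cells pull into fibrils through their integrins, and many carcinoma cells produce it when they take on mesenchymal traits.

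All 9 matrix genes were matched by symbol to start-site windows of RefSeq (build GRCh38.p14), 12 windows in all since *FBLN2*, *FBLN5* and *FBN3* have more than 1 window. The 250 bases before the start are shown for *FBLN1*, *FBN1* and *FBN2*, which passed the test between the lines, and for *FN1*, whose difference rested on 1 array. They lie at chr22:45502633-45502882 on the plus strand, and at chr15:48644971-48645220, chr5:128538246-128538495 and chr2:215436069-215436318 on the minus strand, in that order. The windows of *FBLN1*, *FBN2* and *FN1* adjoin the outer end of the gene. That of *FBN1* lies inside the gene's span (chr15:48408313-48645709), before an internal start, and the bases before its outermost start were not examined. The window of *COL26A1*, not shown, also lies inside its gene. Capitals mark matches, on either strand, to any of 6 motifs: the GC box GGGCGG, the cyclic AMP response element TGACGTCA, the AP-1 element TGANTCA, the CCAAT box CCAAT, the TATA box TATAAA and the TEAD element GGAATG.
FBLN1: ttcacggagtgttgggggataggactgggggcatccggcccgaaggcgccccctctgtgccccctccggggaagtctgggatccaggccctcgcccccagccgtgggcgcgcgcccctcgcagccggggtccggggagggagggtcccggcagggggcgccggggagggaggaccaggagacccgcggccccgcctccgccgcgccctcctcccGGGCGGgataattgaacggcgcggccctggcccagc
FBN1: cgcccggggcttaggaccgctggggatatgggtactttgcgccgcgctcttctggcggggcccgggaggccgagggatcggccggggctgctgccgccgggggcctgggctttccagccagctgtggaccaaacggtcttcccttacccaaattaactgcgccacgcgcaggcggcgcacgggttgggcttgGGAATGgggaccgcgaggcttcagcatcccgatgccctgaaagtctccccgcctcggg
FBN2: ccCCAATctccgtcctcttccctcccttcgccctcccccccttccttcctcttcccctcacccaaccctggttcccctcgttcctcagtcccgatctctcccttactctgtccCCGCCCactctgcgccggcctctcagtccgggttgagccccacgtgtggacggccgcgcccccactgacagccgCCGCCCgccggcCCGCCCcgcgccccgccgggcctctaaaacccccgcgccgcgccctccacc
FN1: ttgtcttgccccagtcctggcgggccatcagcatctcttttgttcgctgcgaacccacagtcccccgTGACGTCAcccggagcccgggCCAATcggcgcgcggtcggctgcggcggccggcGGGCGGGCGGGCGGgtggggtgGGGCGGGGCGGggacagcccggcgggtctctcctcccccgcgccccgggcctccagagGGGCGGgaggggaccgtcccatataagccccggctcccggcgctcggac

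The *FN1* window held 1 cyclic AMP response element, a sequence that 1.65% of all 35116 windows of this length hold, beside 6 overlapping or separate GC boxes and 1 CCAAT box. The *FBN2* window held 3 GC boxes and 1 CCAAT box, the *FBLN1* window 1 GC box, and the *FBN1* window no GC box and 1 TEAD element. A GC box was present in 9 of the 12 windows of the matrix genes against 42.6% of all windows, a CCAAT box in 4 against 32.0%, a TEAD element in 3 against 11.9%, a TATA box in 1 against 10.7% and an AP-1 element in 0 against 6.57%. The share of G and C was above the median of all windows (58.0%) in 11 of the 12, up to 80.4% in a window of *FBLN2*, and below it in a window of *FBLN5* (48.8%). A match is only a run of letters and was not tested for binding or use.

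In UM-Cis, *FBLN1* and *FBN2* fell and *FBN1* rose relative to UMSCC1, so that the 2 fibrillins past the test changed in opposite directions. *FBLN1* was 5.04-fold lower, *FBN2* 1.92-fold lower and *FBN1* 2.54-fold higher. The other 6 matrix genes did not pass, with differences between 0.05 and 1.35 in size on the log2 scale. The count of 1 gene higher and 2 lower of 9, at an adjusted p under 0.05 (limma, Benjamini-Hochberg over all 14812 genes), stands beside 5.91% of all genes higher (876), 4.60% lower (681) and 10.5% in either direction. The 2 lines did not overlap for 6 of the 9 matrix genes, against 30.4% of all genes, and the median difference of the 9 was -0.17, against -0.036 over all genes.

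**Figure D1:**
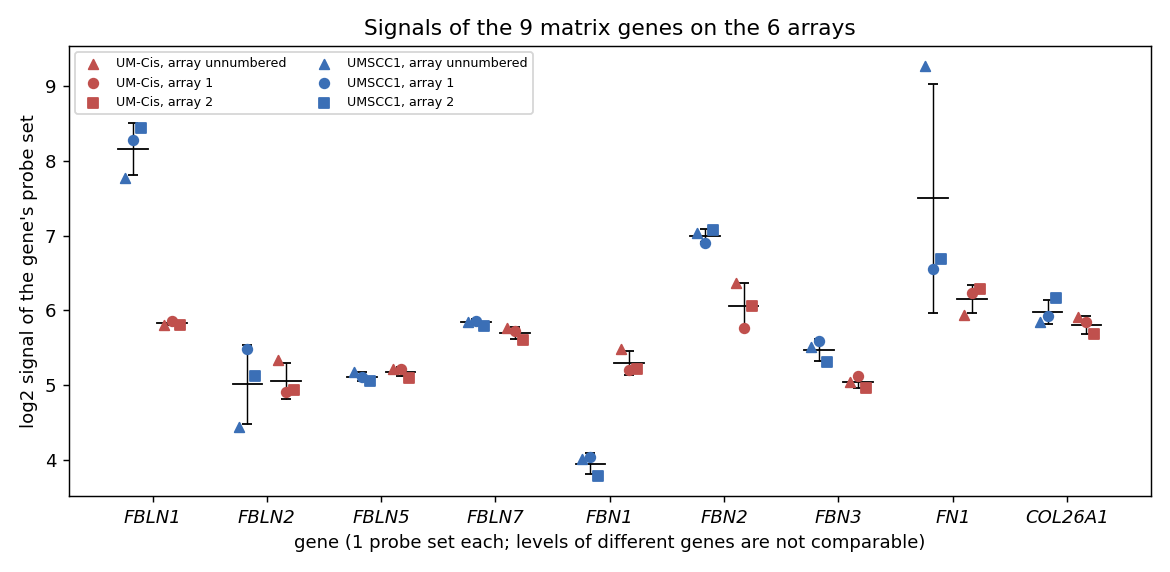
Log2 signal of the probe set of each matrix gene (vertical axis) on each of the 6 arrays, with UMSCC1 in blue and UM-Cis in red, marker shapes for the array labels, and the mean and SD of 3 arrays in black. The UM-Cis arrays of FBLN1 lie together near 5.83, those of FBN1 lie above all UMSCC1 arrays, and 1 UMSCC1 array of FN1 stands at 9.26, apart from the other 5.

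Of the 4 fibulins that the symbol rule took, *FBLN1* passed the test. *FBLN1* (chr22:45502883-45601135) encodes fibulin-1, which binds fibronectin and basement membrane proteins. Its log2 signals in UM-Cis were 5.81, 5.86 and 5.81 on the arrays unnumbered, 1 and 2, and in UMSCC1 they were 7.77, 8.28 and 8.44 in the same order. Every UMSCC1 array was far above every UM-Cis array, and the UM-Cis arrays hardly differed from each other (SD 0.02, n = 3, against 0.35 in UMSCC1). The difference was -2.33 (SE 0.18, 95% interval -2.75 to -1.92, adjusted p = 0.000567 by limma). It was the 8th most negative of all 14812 genes. In RNA from whole cultures, fewer cells that express a gene and less of its RNA per cell cannot be told apart, here and in the other comparisons.

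The other fibulins of the set did not pass. *FBLN5*, whose protein binds elastin and is needed for elastic fibres in mice, had a mean of 5.18 ± 0.06 in UM-Cis and 5.11 ± 0.06 in UMSCC1 (SD, n = 3 each), a difference of 0.07 with a 95% interval of -0.21 to 0.35 (adjusted p = 0.785, limma). *FBLN7*, an adhesive fibulin, had 5.70 ± 0.08 and 5.84 ± 0.04. Its arrays did not overlap, but the difference of -0.13 (interval -0.41 to 0.15) did not pass (adjusted p = 0.564, limma). *FBLN2*, a large fibulin of basement membranes and vessel walls, had 5.06 ± 0.24 and 5.01 ± 0.53, and its arrays overlapped widely. Its difference of 0.05 (interval -0.56 to 0.65, adjusted p = 0.942, limma) turned to -0.09 without the unnumbered UM-Cis array and to -0.24 without the unnumbered UMSCC1 array, so no direction can be given for it.

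The fibrillins were the family in which members moved apart. *FBN1* (chr15:48408313-48645709) encodes fibrillin-1, the main component of microfibrils after birth. It read 5.49, 5.20 and 5.21 in UM-Cis and 4.02, 4.04 and 3.79 in UMSCC1, in the order unnumbered, 1 and 2. All UM-Cis arrays were above all UMSCC1 arrays, and those of UMSCC1 lay below the median of their array (4.77 to 4.82), a dim range in which signal over background is not known. The difference was 1.35 (SE 0.15, 95% interval 1.01 to 1.68, adjusted p = 0.00141, limma). A filter on mean signal (above 4.78) removed *FBN1*, so that it was not tested there.

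*FBN2* (chr5:128257909-128538245) encodes fibrillin-2, found mainly in the microfibrils of developing tissue. It read 6.37, 5.76 and 6.06 in UM-Cis and 7.04, 6.90 and 7.07 in UMSCC1. The UMSCC1 arrays were close together and above every UM-Cis array, which were more spread (SD 0.30 against 0.09, n = 3 each). The difference was -0.94 (SE 0.17, 95% interval -1.34 to -0.54, adjusted p = 0.0119, limma). Of the 3 calls made among the matrix genes, it was lost in the most alternatives, without UMSCC1 array 2 (-0.91, adjusted p = 0.0504, limma), with the per-gene test of the methods (adjusted p = 0.0841) and with arrays set to an equal median of control genes (-0.65, adjusted p = 0.0786, limma).

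*FBN3* (chr19:8065402-8149592), the remaining fibrillin, is known from fetal tissue. It read 5.04, 5.12 and 4.96 in UM-Cis and 5.51, 5.59 and 5.31 in UMSCC1, again with every UMSCC1 array the higher. The difference of -0.43 (SE 0.13, interval -0.74 to -0.12) did not pass (adjusted p = 0.0845, limma), and it did in 3 of 17 alternatives: with the array label as a replicate block (adjusted p = 0.0396, limma), with array weights (0.0372) and with the unnumbered arrays as a batch (0.0389), the last added after the data were seen. Every UM-Cis array was thus below every UMSCC1 array for *FBN2* and *FBN3*, and above for *FBN1*.

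**Figure D2:**
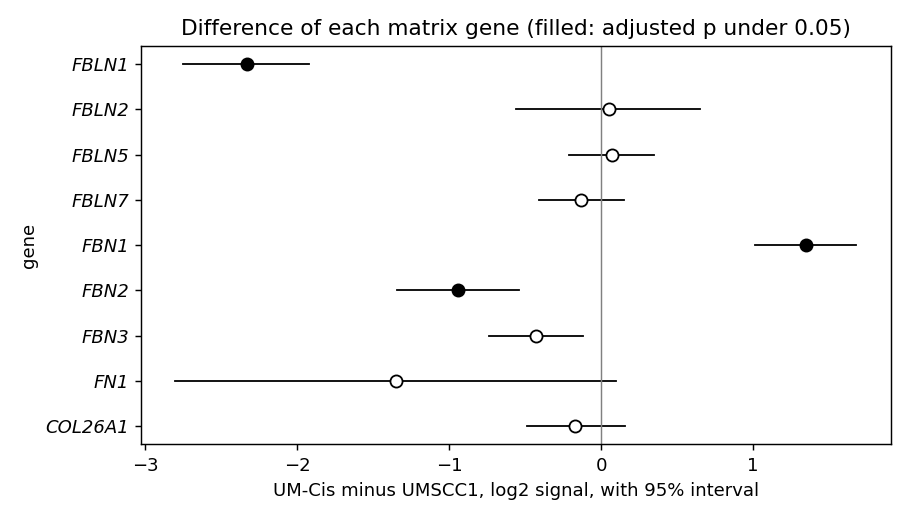
UM-Cis minus UMSCC1 in log2 signal (horizontal axis) for each matrix gene, with the 95% interval from limma over 3 arrays per line. Filled points passed an adjusted p of 0.05: FBLN1 at -2.33, FBN2 at -0.94 and FBN1 at 1.35, and the interval of FN1 is the widest.

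Fibronectin showed a difference as large in size as that of *FBN1* but with far more spread. *FN1* (chr2:215360865-215436068) read 5.94, 6.23 and 6.29 in UM-Cis and 9.26, 6.55 and 6.69 in UMSCC1, in the order unnumbered, 1 and 2. The lines did not overlap, but the unnumbered UMSCC1 array stood far above the other 5, and arrays 1 and 2 of UMSCC1 were close to those of UM-Cis. The difference was -1.35 (SE 0.63, 95% interval -2.80 to 0.10) and did not pass (adjusted p = 0.236, limma). Without the unnumbered UMSCC1 array it was -0.47, and on the numbered arrays alone, a comparison of 2 with 2 added after the data were seen, it was -0.36 (adjusted p = 0.0900, limma).

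The high *FN1* signal was among the largest deviations of that array. *FN1* exceeded the mean of the other UMSCC1 arrays by 2.64, the 4th largest excess of all 14812 genes, and only 9 genes were at least 4-fold above both other arrays there. *EDIL3*, an integrin ligand of the matrix singled out after its values were seen, was next with an excess of 2.31 (7.27, against 4.94 and 4.97). The other 8 matrix genes deviated less: their differences from that mean ran from -0.86 for *FBLN2* to 0.11 for *FBN1*. Of the 4 fibroblast markers, *DCN* read 2.16 on that array, against 2.15 and 1.90 on arrays 1 and 2 of UMSCC1, *LUM* 2.83, against 3.23 and 2.68, *DPT* 4.13, against 3.80 and 3.90, and *THY1* 5.30, against 5.50 and 5.17. Of these, 3 lay below the array median on every array, and *THY1* did not.

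The collagen of the set, *COL26A1* (chr7:101362388-101559024), encodes a short collagen described from gonads in mice. It read 5.91, 5.85 and 5.68 in UM-Cis and 5.85, 5.92 and 6.16 in UMSCC1, so the lines overlapped. The difference of -0.17 (95% interval -0.49 to 0.16) did not pass (adjusted p = 0.527, limma).

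Compared between arrays of the same label, the genes fell into those whose difference was alike in all 3 pairs and those in which it was not. *FBLN1* differed by -1.96, -2.42 and -2.63 in the unnumbered, first and second numbered pair. *FBN1* differed by 1.47, 1.15 and 1.42, and *FBN2* by -0.67, -1.14 and -1.01. These genes kept their direction in every pair, as did *FBN3*, *FBLN5*, *FBLN7* and *FN1*. *FN1* differed by -3.32 in the unnumbered pair and by -0.32 and -0.40 in the numbered ones. *FBLN2* (0.90, -0.58 and -0.19) and *COL26A1* (0.05, -0.07 and -0.48) changed sign between pairs.

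**Figure D3:**
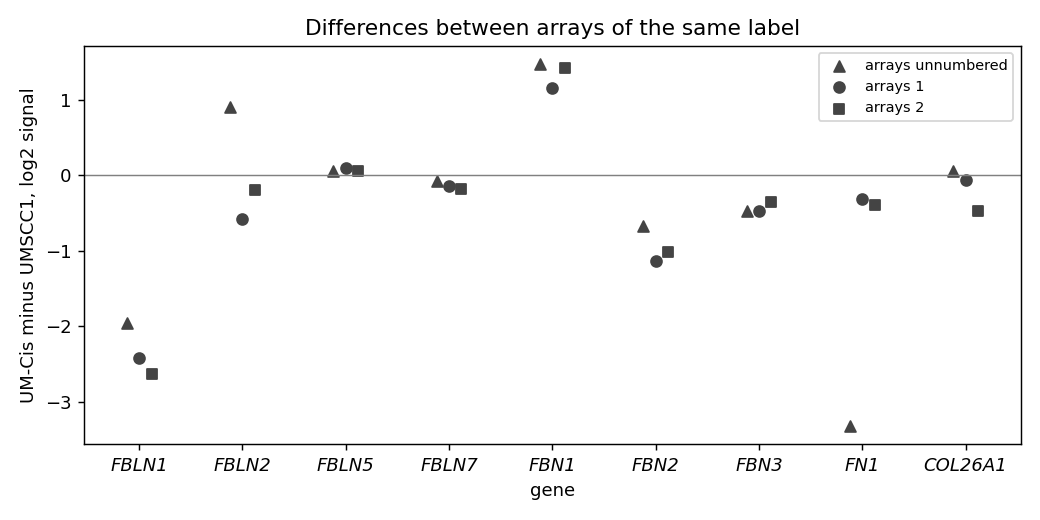
UM-Cis minus UMSCC1 in log2 signal (vertical axis) between arrays of the same label, with triangles for the unnumbered pair, circles for arrays 1 and squares for arrays 2. The unnumbered pair of FN1 lies at -3.32, apart from -0.32 and -0.40, while the pairs of FBLN1, FBN1 and FBN2 each lie together.

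Genes that work with the matrix genes were counted by lists, described without a test of the list. The lists were chosen with earlier results of these data known. The counts cover only listed genes that were measured. These were 17 of 31 for collagen processing, 14 of 17 for basement membrane and 15 of 17 for elastic fibres. For integrin adaptors they were 28 of 38, for other matrix receptors 11 of 11 and for other integrin ligands 14 of 18. Of 15 elastic fibre partners, 0 were higher and 2 lower in UM-Cis (median difference -0.20), or 13.3% called, near the 10.5% of all genes. *EFEMP1*, which encodes fibulin-3 but lies outside the symbol rule, read 9.79, 9.57 and 9.51 in UM-Cis and 10.38, 10.65 and 10.66 in UMSCC1, with every UMSCC1 array the higher. It fell by 0.94 (SE 0.14, adjusted p = 0.00579, limma). With arrays at an equal median of control genes the difference was -0.65 (adjusted p = 0.0732). *ADAMTSL4*, which binds fibrillin-1 microfibrils, fell by 0.79 (adjusted p = 0.0238, limma), a call kept in 2 of 6 fits that left 1 array out and lost without any UM-Cis array or UMSCC1 array 1 (adjusted p 0.0518 to 0.0938), by the per-gene test of the methods (0.110) and with control genes (0.240). *MFAP2* and *LTBP1*, other microfibril partners, differed by -0.34 and 0.49 and did not pass, although *LTBP1* passed in 5 of the 16 alternatives that tested it, the replicate block among them (adjusted p = 0.0335).

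No gene of the 14 listed as basement membrane partners passed, beside 10.5% of all genes (median difference 0.06). The list also holds *GOLM2* (0.16, adjusted p = 0.498, limma), a gene named for a Golgi membrane protein, so it is not purely of basement membrane genes. *BCAM*, a laminin receptor, came nearest, at 0.57 (adjusted p = 0.0532, limma), and passed in 10 of 17 alternatives, among them quantile scaling (0.0493), loess scaling (0.0419) and the replicate block (0.0162). Of 17 genes of collagen processing, 0 were higher and 1 lower, or 5.88% called: *COLGALT1*, which adds galactose to collagen chains, fell by 0.68 (adjusted p = 0.0346, limma), a call kept only without the unnumbered UM-Cis array and lost without any other (adjusted p 0.0703 to 0.128), by the per-gene test of the methods (0.119) or with control genes (0.297).

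Lists of other receptors and ligands held calls in both directions. These lists were chosen with earlier results of these data known, so their shares describe the listed genes and are not evidence of enrichment. Of 11 other matrix receptors, 1 was higher and 3 lower, or 36.4% called, where all genes gave 10.5%. *CD47*, a receptor of thrombospondin, rose by 1.66 (adjusted p = 0.00293, limma). The per-gene test of the methods, with the adjustment added here, did not make that call (adjusted p = 0.0590). At 3.16-fold, *CD47* was past the 2-fold limit of the study (unadjusted p = 5.37e-05, limma). The heparan sulfate carrier *SDC1* fell by 1.18 (adjusted p = 0.00134, limma). Its relative *SDC4*, which binds fibronectin, fell by 0.97 (adjusted p = 0.0203), and the collagen receptor *DDR1* by 0.88 (adjusted p = 0.0124). Both calls were lost without UM-Cis array 1 or 2 or UMSCC1 array 1 (adjusted p up to 0.0868 and 0.0606), by the per-gene test of the methods (0.124 and 0.0786) and with control genes (0.0645 and 0.0952).

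Of 14 other integrin ligands, 3 were higher and 1 lower, or 28.6% called, again beside 10.5% of all genes. *CCN2*, *TNC* and *SPP1*, which encode connective tissue growth factor, tenascin-C and osteopontin, rose by 1.56, 1.15 and 0.92 (adjusted p = 0.000846, 0.0236 and 0.0494, limma), and *THBS1*, which encodes thrombospondin-1, fell by 1.29 (adjusted p = 0.00718, and 0.0841 by the per-gene test of the methods). The call of *CCN2* was lost when its 2 probe sets were averaged (1.43, adjusted p = 0.0616), that of *TNC* without either numbered UMSCC1 array or UM-Cis array 2 or unnumbered (adjusted p up to 0.0974), and that of *SPP1* without any UMSCC1 array or UM-Cis array 1 (adjusted p up to 0.140). The per-gene test of the methods, adjusted here, made neither the *TNC* nor the *SPP1* call (adjusted p = 0.150 and 0.206), and *SPP1* also missed the threshold with averaged probe sets (0.0510). Past the 2-fold limit of the study were *CCN2* (2.95-fold), *TNC* (2.22-fold) and *THBS1* (2.45-fold lower), but not *SPP1* (1.9-fold). Of 28 integrin adaptor and adhesion-site genes, 0 were higher and 3 lower, or 10.7% called. *FERMT1*, which encodes the integrin activator kindlin-1 of epithelial cells, fell by 1.66 (adjusted p = 0.00134, limma). *TNS4*, a tensin of focal adhesions, fell by 0.64 (adjusted p = 0.0252), a call lost without UM-Cis array 1 or 2 or UMSCC1 array 1 or unnumbered (adjusted p up to 0.105). *PTK2B*, a kinase related to focal adhesion kinase, fell by 0.55 (adjusted p = 0.0379), a call lost without any array but the unnumbered UM-Cis one (adjusted p up to 0.137). The calls of *TNS4* and *PTK2B* were also lost by the per-gene test of the methods (0.0751 and 0.0717) and with control genes (0.374 and 0.518).

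**Figure D4:**
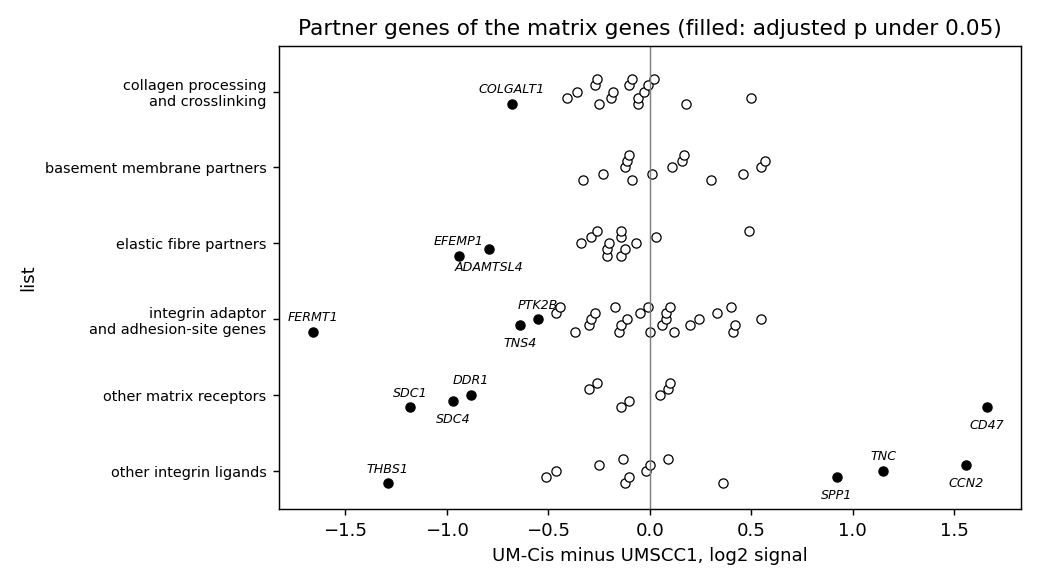
UM-Cis minus UMSCC1 in log2 signal (horizontal axis) of the genes of 6 partner lists, 1 point per gene, spread vertically only for legibility. Filled and named points passed an adjusted p of 0.05, with FERMT1 at -1.66 and CD47 at 1.66 the farthest from 0.

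Facts of the whole series bear on these values as follows. With the array label as a replicate block, 1450 genes were higher and 1244 lower, and *FBN3* joined the matrix genes below the threshold. Of 20 control genes listed, 7 were measured, with a median difference of -0.32. Their differences ran from -1.03 for *IPO8*, which was itself called lower (adjusted p = 0.00351, limma), to 0.56 for *B2M*. They are thus not a neutral reference. Setting the arrays to an equal median of these 7 raised the median difference of all genes from -0.036 to 0.25 and gave 1481 higher and 219 lower. *FBLN1*, *FBN1* and *FBN2* kept their direction there, and *COL26A1* and *FBLN7* turned to 0.12 and 0.15. Markers of other cells were measured for 4 of 7 listed fibroblast, 3 of 6 endothelial and 3 of 6 leukocyte genes. Of the fibroblast and endothelial markers 0 passed, beside 10.5% of all genes, a share at which such short lists say little. Mean levels per array were 3.51 to 3.69 in UM-Cis and 3.41 to 3.67 in UMSCC1 for fibroblasts. For endothelium they were 4.15 to 4.45 and 4.43 to 4.72. Of 3 leukocyte genes, *CD68* was 1.41 higher, *CD14* 0.53 lower and 1 did not pass, or 66.7% called beside 10.5% of all genes. *CD68* was bright in both lines (means 10.06 in UM-Cis and 8.65 in UMSCC1), and *CD14* lay above its array median on 1 array. Of 8 squamous epithelial markers 1 passed, or 12.5% called: *KRT5* fell by 1.94 (adjusted p = 0.00910, limma). *KRT14* fell by 0.92, with every UMSCC1 array the higher, and did not pass (adjusted p = 0.0588, limma), but did with the replicate block (0.00797). The median difference of the list was -0.21, and its means per array were 7.31 to 7.50 in UM-Cis and 7.62 to 7.95 in UMSCC1. The part of these in the differences of the matrix genes was not tested.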

How the data were processed

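Total RNA was hybridized by the authors to Affymetrix Human Gene 2.0 ST arrays, and the deposited values are log2 signals per probe set. The submitters' processing notes name RMA and the methods quantile normalization. No source used here gives versions. Of 44629 probe sets, 15835 had 1 symbol in the platform annotation, 0 had several and 28794 had none here. The test between the lines was that of limma 3.58.1 (R 4.3.3; lmFit, eBayes, two-sided, Benjamini-Hochberg over 14812 genes, no filter). No detection call was used. How many arrays there were limits the precision. The members and lists were chosen with earlier results of these data known. The rule for names took every member past the test or with an adjusted p from 0.05 to 0.1, the best member of each role otherwise, and up to 4 genes per partner list with the smallest adjusted p. Remaining members were then added, as were *EDIL3* and the markers. The main fit did not pair the arrays. Replicate labels paired them only in the replicate block and in the differences between arrays of the same label. Same-label deviations correlated (r = 0.505, 0.237 and 0.357). No source states a shared batch. Numbered arrays of different number correlated at r = 0.265 and 0.233, near the 0.237 of arrays 1 and below the 0.357 of arrays 2. The values thus separate unnumbered from numbered arrays but do not clearly separate array 1 from 2. Alternatives were the t-test, trended prior, array weights, quantile and loess scaling, control genes, a filter, averaged probe sets, arrays left out, a replicate block and a 2-fold threshold. Gene coordinates and promoters came from RefSeq.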

Additional observations from a re-analysis of the deposited data

How the results depend on the processing

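The counts of all genes higher and lower in UM-Cis (876 and 681) were 322 and 248 with the t-test of the methods and the adjustment added here. They were 1594 and 1508 with array weights, 1481 and 219 with control genes and 1450 and 1244 with the replicate block. At 2-fold with an unadjusted p under 0.05 (limma) they were 362 and 252. Leaving out 1 array gave 433 to 848 higher and 324 to 738 lower, with 433 to 489 and 324 to 374 without a numbered array of either line. Added after seeing the data, the numbered arrays only gave 1387 and 1301 and the unnumbered arrays as a batch 1731 and 1528. Of the matrix genes, the 2 lower ones became 1 with the t-test, control genes and the 2-fold threshold, and 1 to 2 with an array left out, and 3 with array weights, the replicate block and the unnumbered arrays as a batch, each time with *FBN3*. The 1 higher gene became 0 with the filter on dim probe sets, which removed *FBN1*, and was 1 in each fit with an array left out. *FBLN1* passed in all 17 alternatives and *FBN1* in the 16 that tested it, as did *FERMT1* and *SDC1* among the partner genes in all 17. Sign changes were found for *FBLN2* (-0.28 with array weights, -0.24 to 0.28 with an array left out, among them -0.09 without the unnumbered UM-Cis array, -0.38 on the numbered arrays only), *COL26A1* (0.12) and *FBLN7* (0.15), both with control genes. The cause was not tested. In the replicate block no call of a matrix gene changed except that of *FBN3*. Outside the matrix genes the block added *PCOLCE*, *PCOLCE2*, *BCAM*, *HSPG2* and *LTBP1* to the named partner genes below the threshold. With 3 arrays a line and no measure of background, small differences and dim genes such as *FBN1* in UMSCC1 are least certain.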

Other observations

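Besides *FN1* and *EDIL3*, the genes with the largest excess on the unnumbered UMSCC1 array, chosen after their values were seen, included *MMP1*, the interstitial collagenase, at 7.23 against 5.04 and 4.90 on arrays 1 and 2. *MMP1* read 3.50, 3.73 and 3.60 in UM-Cis. *SLPI*, a secreted protease inhibitor, read 10.19 against 6.90 and 6.68 in UMSCC1, and was also high on the unnumbered array of UM-Cis (9.04, against 7.13 and 6.56), which *FN1* was not. Large excesses on that UMSCC1 array were also seen for *TSPAN2* (3.27), *MIR329-1* (2.81) and *SCARNA5* (2.26), so they were not confined to matrix or protease genes.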
